A study of Arabidopsis thaliana with 12 samples.

Results

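Cytochrome P450 genes were followed in whole Arabidopsis thaliana seedlings treated with a chitin fragment. The probe sets were those with 1 gene in the array annotation and a symbol made of CYP, a family number, a subfamily letter and a gene number; CYP81F2, CYP79B2, CYP79B3, CYP83B1 and CYP71A13, genes of indole glucosinolate and camalexin synthesis, were left out by rule, and none of them had a probe set of its own in that annotation. This gave 22 of the 22746 probe sets, each for a different gene. The RefSeq gene table (assembly TAIR10.1) holds 225 genes with a symbol of this form, so the 22 do not stand for the whole family: 8730 probe sets had no listed gene, and 11933 of the 13513 with 1 gene carried only a locus code. Of the 22, 18 belonged to family CYP71, every one of them to subfamily CYP71B, and families CYP51, CYP78, CYP79 and CYP84 had 1 probe set each. Families CYP81, CYP94 and CYP707 had none.

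The arrays came from a wild type and from a double mutant of ERF5 and ERF6, ethylene response factors of the AP2/ERF family, which the labels call erf5/6. Seedlings of both genotypes were 14 days old, had grown in MS medium under constant light, and received 1 µM chitooctaose, a soluble chitin oligosaccharide, or an equal amount of water for 30 min. Each of the 4 groups (wild type in water, wild type in chitooctaose, mutant in water, mutant in chitooctaose) had 3 arrays, described in the labels as biological replicates. The labels give no allele, ecotype or number of seedlings per array, and 0 probe sets with 1 gene were named ERF5 or ERF6, so the mutant label could not be checked on the targeted transcripts.

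Cytochrome P450 enzymes are heme-containing monooxygenases, most of them anchored in the endoplasmic reticulum and supplied with electrons by NADPH-P450 reductase. Plants use them to make and to break down hormones, sterols, pigments and defence compounds, and the family number groups enzymes by sequence likeness. Subfamily CYP71B is a large group of Arabidopsis genes, many of them side by side in tandem; its member CYP71B15 (PAD3), not measured under that name here, makes the phytoalexin camalexin, while for most of the others no substrate is firmly known. CYP51 enzymes demethylate sterol precursors, CYP78A enzymes promote organ growth, CYP79 enzymes turn amino acids into aldoximes, and CYP84A enzymes act on phenylpropanoids.

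Treatment was the main axis of variation: the first principal component, with 64.9% of the variance, divided chitooctaose from water arrays. The second held 7.42% of it and set array 1 of wild type in water (-19.5) and array 2 of wild type in chitooctaose (-26.6) apart from the remaining 10, which lay between -5.65 and 11.4. Correlations between arrays of a group were at least 0.984. Of the green tissue markers 3 of 13 were measured and of the root markers 3 of 11, all above the floor; the leaf gene RCA lay between 5891 and 6456 and the root gene PYK10 between 3545 and 4287 in normalized intensity, and none of the 6 markers was called in either response. None of the 11 seed and pollen markers was measured by a probe set of 1 gene.

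Intensities below 16 were treated as at the floor. Of the 22 P450 probe sets, 14 were above the floor on all 12 arrays, 5 on some and 3 on none. Named after their values were seen, the 3 on none were those of CYP71B16, CYP71B31 and CYP79A2, with intensities of at most 10.5, 8 and 1.7; CYP79A2 makes phenylacetaldoxime for benzylglucosinolate, and CYP71B31 can oxidise linalool. The other 19, among them 16 of CYP71B, entered the tests. Their median residual SD between replicates was 0.20 on the log2 scale, against 0.16 over all 18680 probe sets tested. The 2 medians were not matched for brightness or for values at the floor. Brightness differs between probe sets for reasons of probe design, so intensities are compared only within a probe set.

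After 30 min of chitooctaose, CYP71B5 was the only tested member called higher in both genotypes. Members were called about as often as probe sets at large. With limma, at an adjusted p under 0.05 over all probe sets tested, 2 of 19 members were called in wild type, against 10.1% of all probe sets, and 2 of 19 in the mutant, against 8.61%. By direction, 1 of 19 members rose in wild type (CYP71B5) and 1 fell (CYP71B26), against 6.06% and 4.08% of all probe sets. In the mutant 2 of 19 rose (CYP71B5 and CYP71B23) and 0 fell, against 5.95% and 2.66%; for the falls 2 members had an unadjusted p under 0.05, against 12.3% of all probe sets. The median change of the 19 was -0.05 on the log2 scale in wild type and 0.03 in the mutant, beside -0.07 and -0.08 over all probe sets, and 0 of 19 in wild type and 1 of 19 in the mutant reached 2-fold, against 3.6% and 3.81% of all. In whole seedlings, fewer cells that express a gene and less RNA per cell cannot be told apart. Left out singly, arrays moved the wild-type count: it was 4 without array 1 of wild type in water or array 2 of wild type in chitooctaose, and 1 without array 1 or 2 of mutant in water, array 1 of mutant in chitooctaose, or array 2 or 3 of wild type in water. The mutant count was 1 without array 2 or 3 of mutant in water, any array of mutant in chitooctaose, array 3 of wild type in water or array 1 of wild type in chitooctaose. CYP71B5 was called in both genotypes in each of these fits.

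CYP71B5 (AT3G53280) roughly doubled. In wild type its normalized intensity was 134, 123 and 128 on the water arrays and 278, 224 and 263 on the chitooctaose arrays. In the mutant it was 129.9, 86.2 and 136 in water and 242, 250 and 255 in chitooctaose. All 6 chitooctaose arrays lay above all 6 water arrays, and array 2 of mutant in water was the lowest. The change was 0.99 ± 0.15 on the log2 scale in wild type (SE, n = 3 arrays per group; limma adjusted p = 0.00124) and 1.11 ± 0.15 in the mutant (limma adjusted p = 0.000458), or 1.98-fold and 2.16-fold. Here and below the SE is that of limma, with the spread pooled over all 4 groups. With only the arrays compared, the SE of CYP71B5 was 0.096 in wild type and 0.19 in the mutant. Without array 2 of mutant in water the mutant change was 0.91 (limma adjusted p = 0.000152). Over 24 alternatives each, the change ranged from 0.84 to 1.11 in wild type and from 0.91 to 1.24 in the mutant. Its highest limma adjusted p in them was 0.00731 in wild type and 0.0259 in the mutant, and the call was lost in wild type only where a change of at least 2-fold was also asked. Its neighbours in the run of 4 CYP71B genes gave no comparison: CYP71B31 and the pseudogene-named CYP71B30P, at most 1.8, were at the floor on all arrays, and CYP71B32 was not measured by a probe set of 1 gene.

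**Figure D1:**
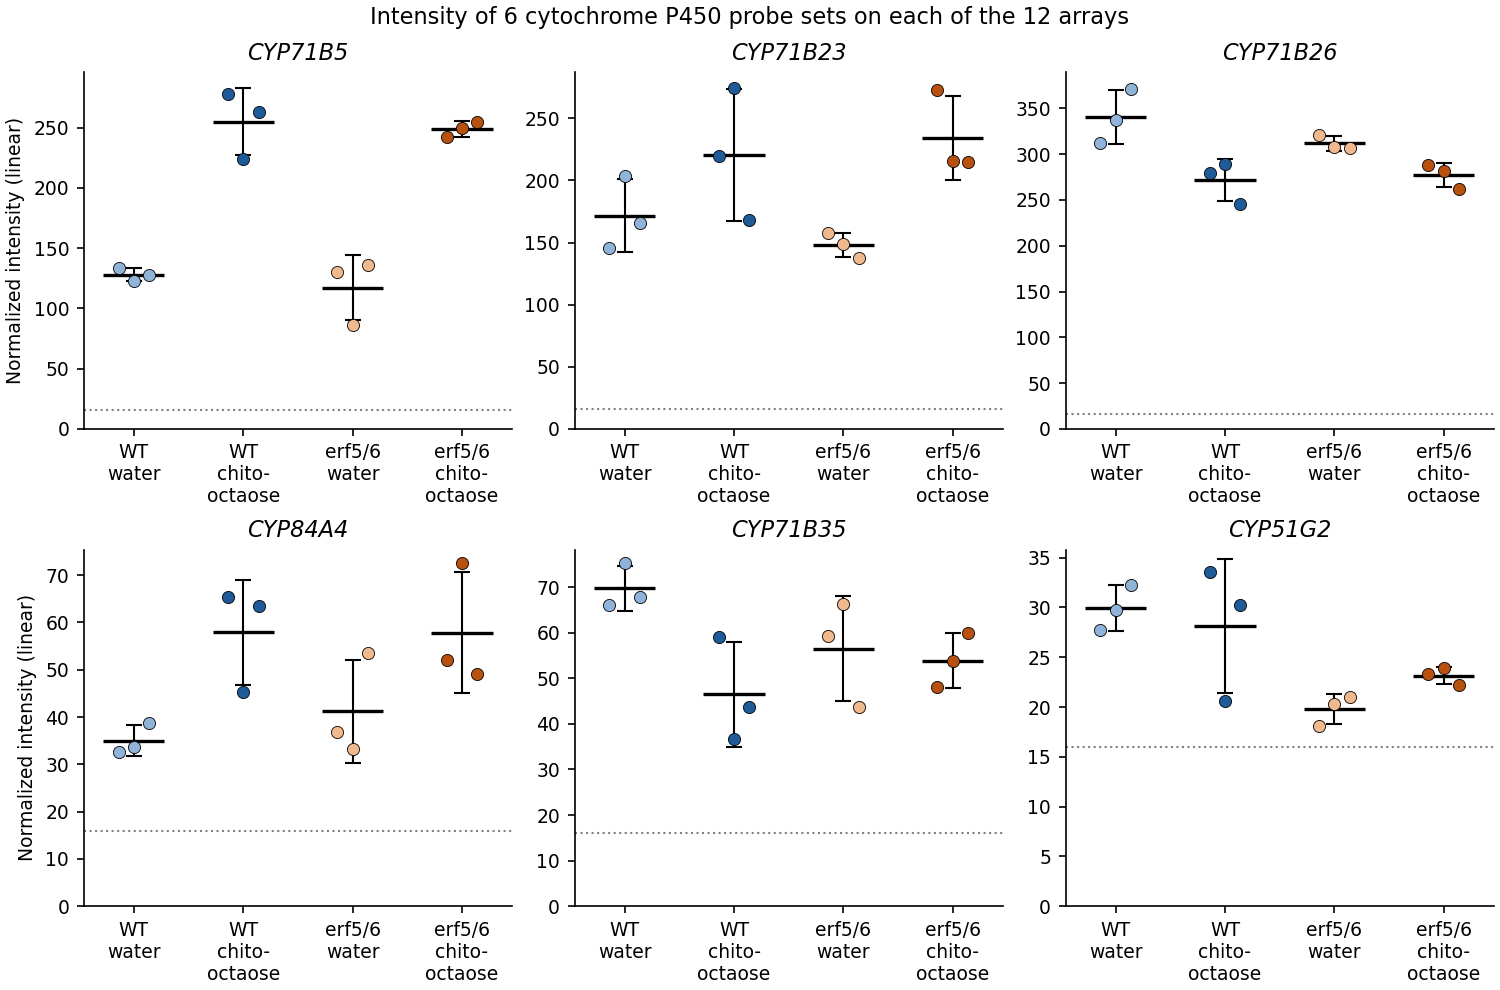
Normalized intensity (linear scale, from 0) of 6 P450 probe sets on each of the 12 arrays, by group; points are arrays, horizontal lines group means, error bars SD (n = 3) and the dotted line the floor of 16. For CYP71B5 every chitooctaose array lies above every water array; the other 5 are CYP71B23, CYP71B26, CYP71B35, CYP84A4 and CYP51G2, of which CYP71B23 rises without overlap in the mutant and CYP51G2 lies near the floor.

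Most CYP71B genes sit beside others of the subfamily. In the gene order of the RefSeq table, 16 of the 18 CYP71B probe sets belonged to 4 runs of neighbouring CYP71B genes, and the other 2, CYP71B6 and CYP71B38, stood alone. The runs held 10 genes from CYP71B16 to CYP71B24, 8 from CYP71B25 to CYP71B37, 5 from CYP71B27 to CYP71B7 and 4 from CYP71B5 to CYP71B32. Sequences of the genes in a run were not compared, and whether a probe set also binds RNA of a neighbour was not tested. CYP71B19 and CYP71B20 of the first run share 1 probe set.

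In the run from CYP71B16 to CYP71B24, CYP71B23 (AT3G26210) rose in the mutant. Its intensity there was 158, 149 and 138 in water and 273, 215 and 214.5 in chitooctaose, so the groups did not overlap. In wild type it was 146, 204 and 166 in water and 219, 274 and 168 in chitooctaose, and the groups overlapped. The change was 0.65 ± 0.18 in the mutant (SE, n = 3 arrays per group; limma adjusted p = 0.047) and 0.35 ± 0.18 in wild type (limma adjusted p = 0.275), and the difference between the 2 changes, 0.31, had a 95% interval from -0.25 to 0.87. The mutant call was lost without any of the 6 mutant arrays (limma adjusted p from 0.0755 to 0.169), without array 3 of wild type in water (0.0672) or array 1 of wild type in chitooctaose (0.0649), and with floor-constant probe sets kept (0.101).

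CYP71B24 (AT3G26230), of the same run, was at 135, 98.6 and 91 in mutant water arrays and at 170.2, 132 and 146 in mutant chitooctaose arrays. In wild type it was at 141, 163 and 142 in water and at 154, 152 and 125 in chitooctaose. The low values were those of arrays 2 and 3 of mutant in water, and the treatments overlapped in both genotypes. The changes were 0.48 ± 0.15 in the mutant (SE, n = 3 arrays per group; limma adjusted p = 0.0947) and -0.05 ± 0.15 in wild type (limma adjusted p = 0.888), neither of which passed; the mutant change passed in 2 of 23 alternatives. CYP71B21 and CYP71B22 were not called, with changes between -0.19 and 0.08 in the genotypes. CYP71B22 spread widely in wild type: 213, 274 and 393 in water and 346, 219 and 360 in chitooctaose, with both low values on the pair of arrays set apart by the second component.

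In the run from CYP71B25 to CYP71B37, CYP71B26 fell in wild type and the other 5 tested members did not pass. All 6 estimates were below 0 there, from -0.61 to -0.01, where 64.8% of all probe sets were below 0; with median centring, and without array 3 of wild type in water, it was 5 of 6. Of these 6, CYP71B25 was at the floor on 2 of 3 arrays in each wild-type group, so its sign carries little weight. In 5 of the 6 (CYP71B26, CYP71B34, CYP71B35, CYP71B36 and CYP71B37) all wild-type chitooctaose arrays lay below all wild-type water arrays, and these were the only members with such a separation downward, 5 of 19 against 16.9% of all probe sets. The run was singled out after its values were seen and has no test of its own. In the mutant 4 of the 6 were below 0, from -0.41 to 0.13, and 2 (CYP71B26 and CYP71B37) were separated downward, among 4 of 19 members against 17.8% of all. Those below 0 included CYP71B25, at the floor on 2 of 3 mutant water arrays and all 3 mutant chitooctaose arrays.

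CYP71B26 (AT3G26290) was the one member of the run that passed. Its intensity in wild type was 313, 337 and 372 in water and 279.8, 289 and 246 in chitooctaose, and in the mutant 321, 308 and 307 in water and 288, 281 and 262 in chitooctaose. All 6 chitooctaose arrays lay below all 6 water arrays. The change was -0.33 ± 0.09 in wild type (SE, n = 3 arrays per group; limma adjusted p = 0.0381) and -0.17 ± 0.09 in the mutant (limma adjusted p = 0.303). The wild-type call held without array 3 of mutant in chitooctaose, array 1 of wild type in water or array 2 of wild type in chitooctaose (limma adjusted p = 0.0497, 0.0347 and 0.0339), and each of the other 9 arrays, left out in turn, ended it (0.0503 to 0.138). Without both arrays set apart by the second component the change was -0.43 (0.0287). The call was also lost with median centring (0.0531), with only the arrays compared (0.133) and with the replicate number as a block (0.0666).

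CYP71B35 (AT3G26310) had the most negative change of the run, without passing. In wild type it was at 66, 75.3 and 67.9 in water and at 59.1, 36.6 and 43.8 in chitooctaose, a change of -0.61 ± 0.19 (SE, n = 3 arrays per group; limma adjusted p = 0.0643). In the mutant it was at 59.3, 66.4 and 43.8 in water and at 48, 53.8 and 59.9 in chitooctaose, a change of -0.05 ± 0.19 (limma adjusted p = 0.919). The groups were apart in wild type and overlapped in the mutant. CYP71B37 (AT3G26330), close to the floor, was at 20.1, 29.5 and 22.7 in wild-type water and at 18.6, 18.9 and 13.8 in wild-type chitooctaose arrays. In the mutant it was at 26.4, 27.5 and 30.3 in water and at 20.3, 21 and 22 in chitooctaose. Its changes were -0.42 and -0.41 (limma adjusted p = 0.0705 and 0.0885), separated in each genotype but not called. The remaining members, CYP71B25 (above the floor on 3 arrays only), CYP71B34 and CYP71B36, lay between -0.26 and 0.13, with no call.

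**Figure D2:**
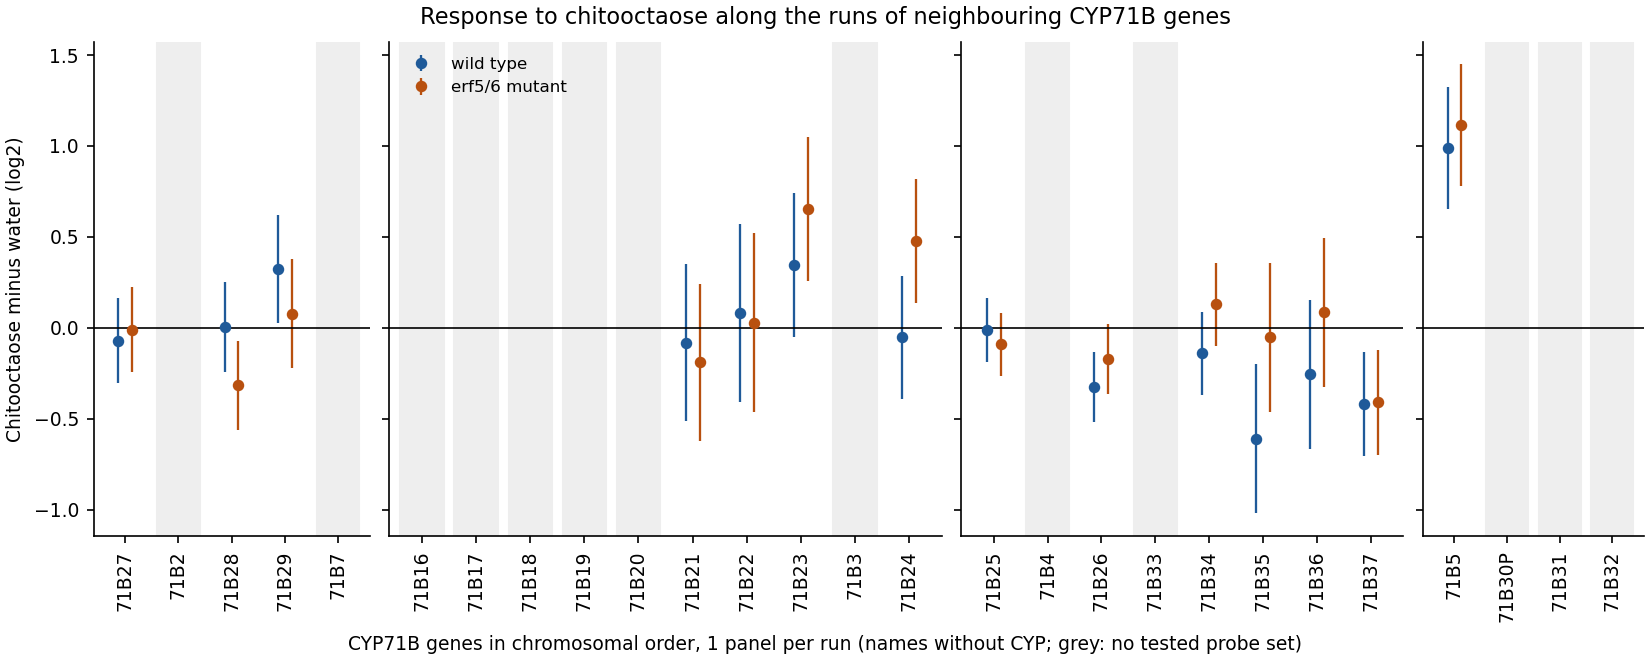
Change after chitooctaose (log2, chitooctaose minus water) of CYP71B genes in their chromosomal order, 1 panel for each of 4 runs; points are limma estimates for wild type and the erf5/6 mutant, bars 95% confidence intervals, and grey columns genes with no tested probe set. In the run from 71B25 to 71B37 the wild-type points lie at or below 0, from -0.61 to -0.01, and 71B5 stands at 0.99 and 1.11.

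The remaining CYP71B genes gave no call over all 12 arrays. In the run from CYP71B27 to CYP71B7, CYP71B28 (AT1G13090) was at 125, 104.5 and 127 in mutant water arrays and at 85.5, 98 and 102 in mutant chitooctaose arrays, a change of -0.32 ± 0.11 (SE, n = 3 arrays per group; limma adjusted p = 0.128), and at 0.00 in wild type. CYP71B29 (AT1G13100) had 0.32 in wild type (limma adjusted p = 0.176), with the 3 chitooctaose arrays just above the 3 water arrays, and 0.08 in the mutant. CYP71B27, listed as a transcribed pseudogene, was close to the floor, with -0.07 and -0.01. CYP71B6, which acts on indole-3-acetonitrile, was at 308, 301 and 343 in wild-type water arrays and at 392, 291 and 399 in wild-type chitooctaose arrays, with changes of 0.17 and 0.20 in the genotypes (limma adjusted p = 0.414 and 0.37). Its low value in chitooctaose was array 2 of wild type, one of the pair set apart by the second component; without that array the wild-type change was 0.32 (limma adjusted p = 0.0377). CYP71B38 had 0.53 and -0.14, with replicates from 18.2 to 39.5 in wild-type water arrays alone. Without array 1 of wild type in water, the highest of those, its wild-type change was 0.86 (limma adjusted p = 0.022), and without array 2 of that group 0.30 (0.576).

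Outside CYP71, no tested probe set was called. Families CYP51, CYP78 and CYP84 had 1 each, and that of CYP79 was at the floor on all arrays and not tested. CYP84A4 (AT5G04330), an enzyme of arabidopyrone synthesis and a relative of ferulate 5-hydroxylase, came closest and is described in full for that reason, chosen after its values were seen. In wild type it was at 32.7, 33.6 and 38.7 in water and at 65.3, 45.2 and 63.4 in chitooctaose. In the mutant it was at 36.8, 33.2 and 53.6 in water and at 52, 72.6 and 49 in chitooctaose. The wild-type groups were apart and the mutant groups overlapped. The change was 0.71 ± 0.21 in wild type (SE, n = 3 arrays per group; limma adjusted p = 0.0579) and 0.50 ± 0.21 in the mutant (limma adjusted p = 0.209). In wild type 7 of 22 alternatives called it, with adjusted p-values from 0.00901 to 0.17, the lowest with array weights. In all, 3 of 19 members were separated upward in wild type (CYP71B5, CYP71B29 and CYP84A4), against 9.12% of all probe sets, and 4 of 19 in the mutant (CYP51G2, CYP71B5, CYP71B6 and CYP71B23), against 8.8%.

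CYP78A9 (AT3G61880), whose overexpression enlarges fruits and seeds, was at 43.3, 39 and 29 in wild-type water arrays and at 24.6, 13.2 and 37.6 in wild-type chitooctaose arrays. In the mutant it was at 31.4, 39.1 and 39.1 in water and at 24.4, 23.5 and 26.3 in chitooctaose. The changes were -0.58 ± 0.26 and -0.56 ± 0.26 (SE, n = 3 arrays per group; limma adjusted p = 0.205 and 0.254); the mutant groups were apart, and the value of array 2 of wild type in chitooctaose was below the floor. Without that array the wild-type change was -0.27 (limma adjusted p = 0.46), and without array 3 of the same group it was -0.88 (limma adjusted p = 0.0288). CYP51G2 (AT2G17330), of the sterol demethylase family, changed by -0.12 in wild type and 0.23 in the mutant (limma adjusted p = 0.712 and 0.45), at intensities of 18.1 to 33.6, close to the floor.

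**Figure D3:**
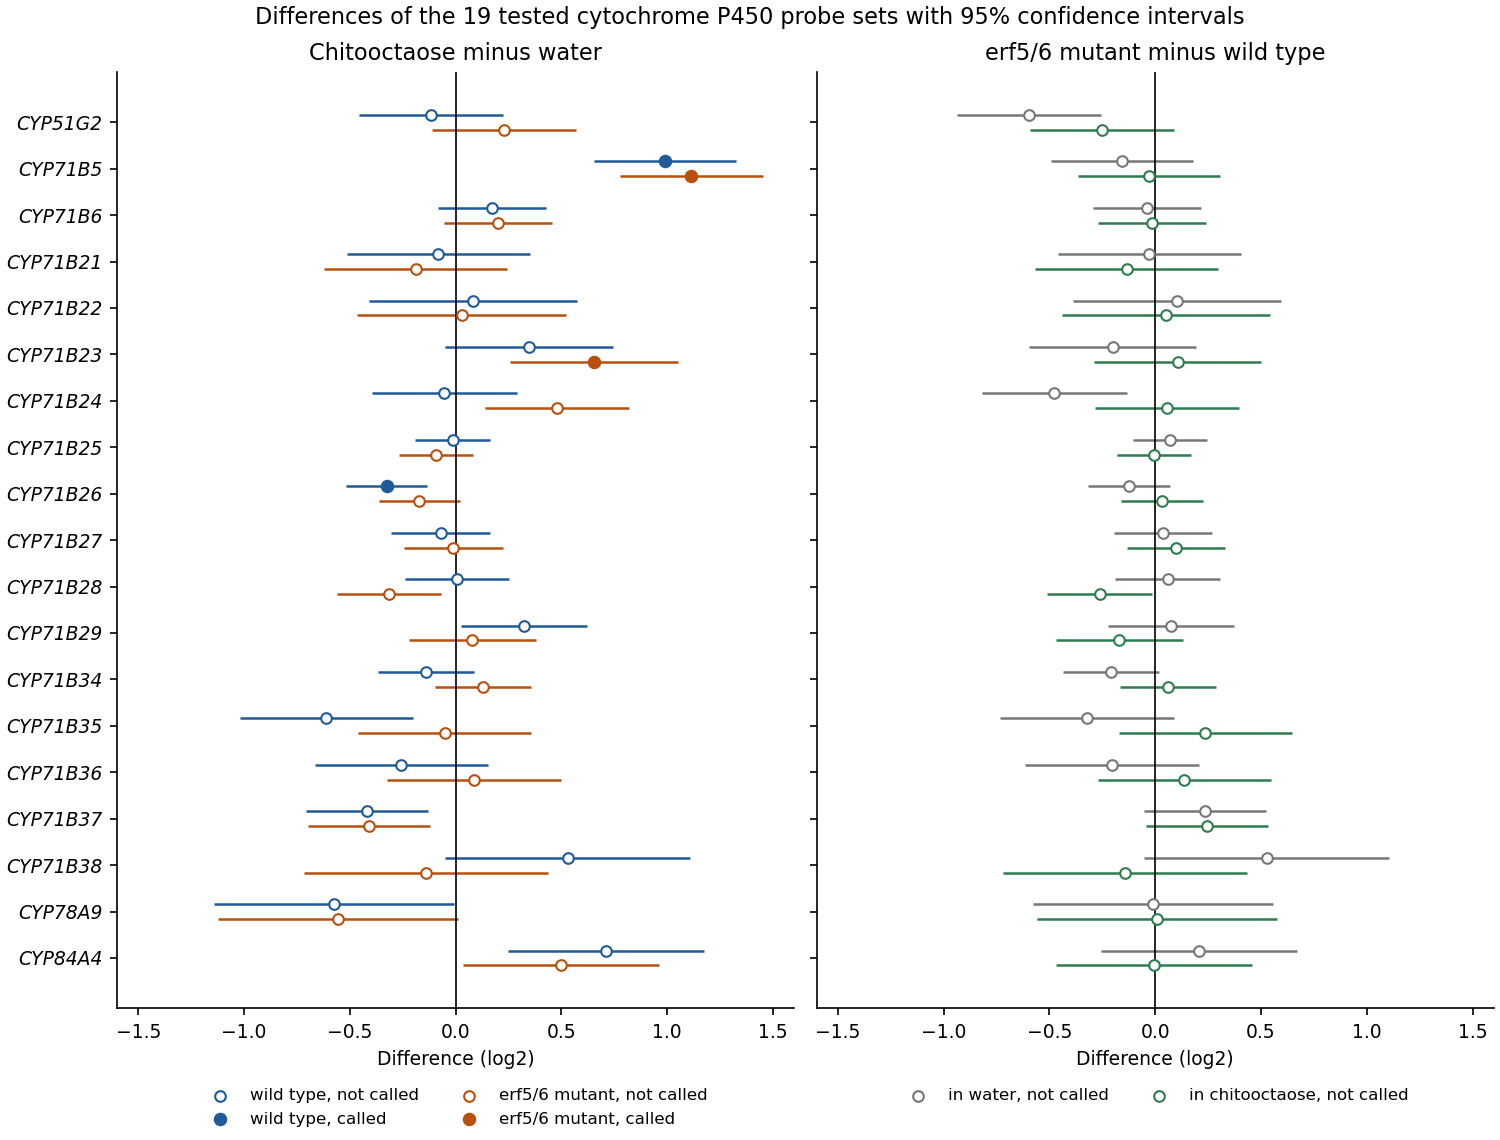
Differences (log2) of the 19 tested P450 probe sets with 95% confidence intervals from limma: chitooctaose minus water in each genotype (left) and mutant minus wild type in each treatment (right). Filled points were called at an adjusted p under 0.05; the filled points are CYP71B5 in both genotypes, CYP71B26 in wild type and CYP71B23 in the mutant, and no genotype difference is filled.

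Whether the P450 genes responded differently in the mutant was tested as the difference between the 2 responses, mutant minus wild type. Limma called 0 of 19 members, as it called 0% of all probe sets; 1 member had an unadjusted p under 0.05, against 4.6% of all. The 5 members with the lowest p were CYP71B24 (0.53, with a 95% interval from 0.05 to 1.01), CYP71B35 (0.56, -0.02 to 1.14), CYP71B28 (-0.32, -0.67 to 0.03), CYP71B34 (0.27, -0.05 to 0.59) and CYP71B38 (-0.67, -1.49 to 0.15), each with a limma adjusted p of 0.997. For CYP71B5 the difference was 0.13, with an interval from -0.35 to 0.60. The unadjusted 95% intervals of the members reached a median of 0.48 to each side, and a missed threshold does not show equal responses.

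The genotypes were also compared within each treatment. In water limma called 0 of 19 members, against 0.0321% of all probe sets (0.0214% higher and 0.0107% lower in the mutant); at an unadjusted p under 0.05 it was 2 of 19, against 6.05% of all. In chitooctaose it called 0 of 19, against 0.0214% of all (0.0107% higher and 0.0107% lower); at an unadjusted p under 0.05 it was 1 of 19, against 6.46% of all. Both comparisons share arrays with the responses above. The lowest p in water was that of CYP51G2, at 18.1, 20.3 and 21 in the mutant and at 27.7, 29.7 and 32.3 in wild type. The mutant was lower on every array, by -0.60 ± 0.15 (SE, n = 3 arrays per group; limma adjusted p = 0.593), but the mutant values lay close to the floor of 16. CYP71B24 was lower in mutant water arrays as well, by -0.48 ± 0.15 (limma adjusted p = 0.716), its groups being the other ones separated in water: 2 of 19 members lower, against 5.17% of all probe sets, and 0 of 19 higher, against 5.1%. CYP71B34, CYP71B38 and CYP71B37 followed, at -0.21, 0.53 and 0.24.

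In chitooctaose the lowest p was that of CYP71B28, at -0.26 ± 0.11 (SE, n = 3 arrays per group; limma adjusted p = 0.751), with 85.5, 98 and 102 in the mutant and 125, 103.6 and 114 in wild type. CYP71B37 was at 0.25, CYP51G2 at -0.25, CYP71B35 at 0.24 and CYP71B29 at -0.17, with limma adjusted p-values from 0.801 to 0.871. The groups of CYP71B28 (lower) and CYP71B37 (higher) did not overlap, 1 of 19 in each direction, against 5.59% and 4.9% of all probe sets. CYP71B5 differed little between the genotypes in either treatment, at -0.16 in water (95% interval -0.49 to 0.18) and -0.03 in chitooctaose (-0.36 to 0.31).

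**Figure D4:**
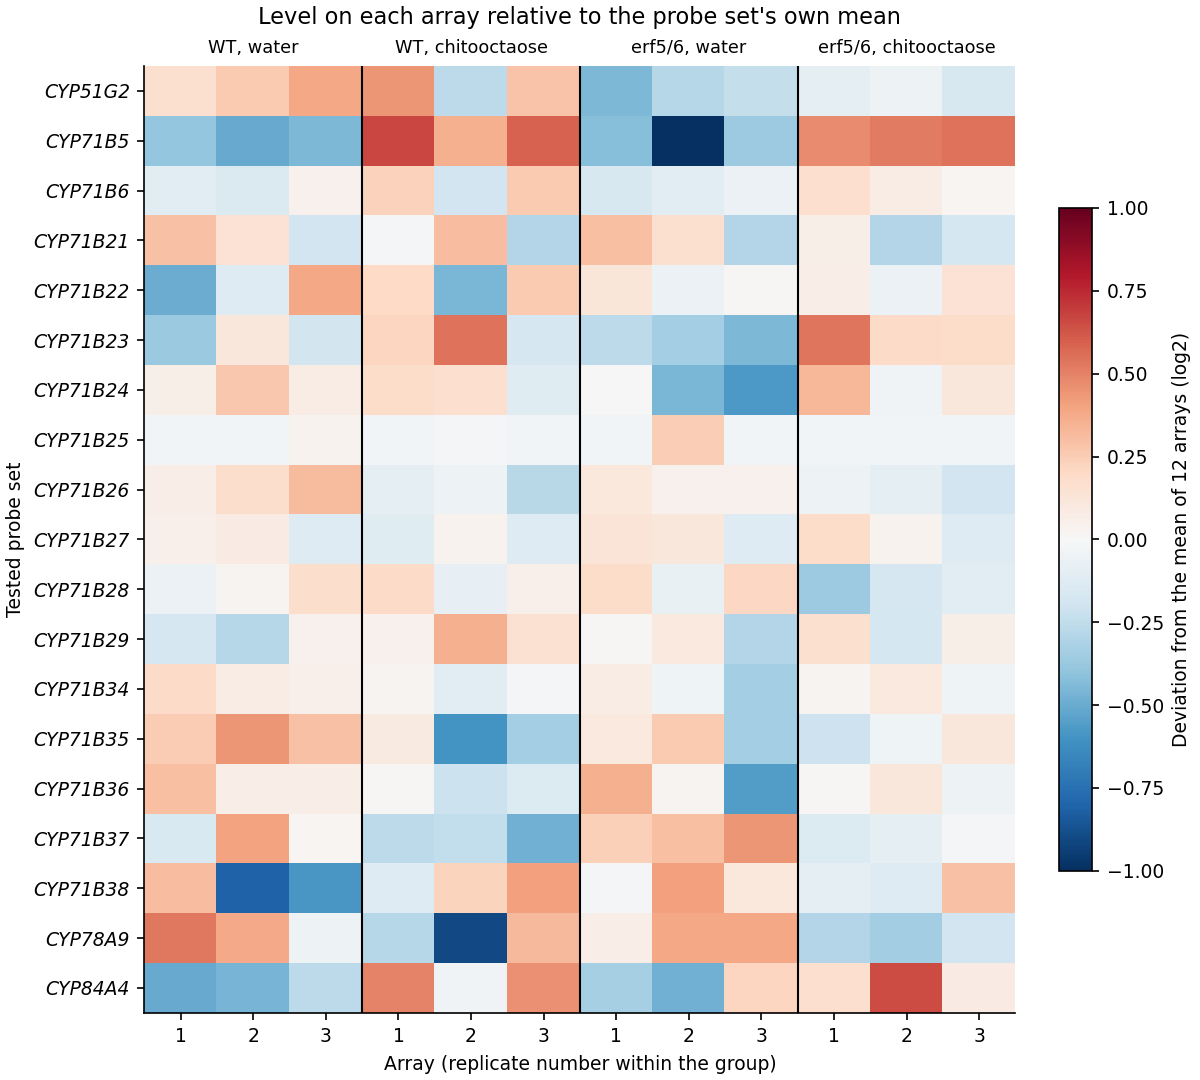
Deviation of each of the 19 tested P450 probe sets (rows) on each of the 12 arrays (columns, 3 per group) from its own mean, in log2 with the floor of 16 applied; red is higher, blue lower. CYP71B5 is red on all 6 chitooctaose arrays and blue on all 6 water arrays; CYP71B26 shows the opposite order in paler shades, with every chitooctaose array below every water array, and CYP78A9, CYP71B22 and CYP71B35 are low on array 2 of wild type in chitooctaose.

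Other genes linked to P450 pathways were hardly measured under their names. Of 107 entries in 6 lists (P450 genes under other symbols, their redox partners, and partner enzymes of CYP94, CYP707, CYP86 and of the brassinosteroid and sterol P450s), 4 had a probe set of 1 gene and 3 were tested, those 3 in the list of abscisic acid partners of CYP707. The fourth, the jasmonate methyltransferase gene JMT of the CYP94 list, was at the floor on all arrays, and the other 4 lists had none. UGT71B6, which glucosylates abscisic acid, was at the floor on all 6 water arrays, at 41.4, 49.2 and 44.7 in wild-type chitooctaose arrays and at 50.6, 48.8 and 39.7 in mutant ones. It was at least 2.81-fold higher in wild type (limma adjusted p = 8.13e-07) and at least 2.88-fold higher in the mutant (limma adjusted p = 6.39e-07). The floor set all 6 water values of UGT71B6 to 16 and left no spread within the water groups. Its p-values rest partly on that and cannot be read at their face value. UGT71C5, another abscisic acid glucosyltransferase, had 0.28 and 0.11 (limma adjusted p = 0.109 and 0.589), and the glucosidase family gene BGLU33 had -0.06 and -0.10 (limma adjusted p = 0.89 and 0.785). The list thus had 1 of 3 higher and 0 lower in each genotype, beside 6.06% and 4.08% of all probe sets in wild type and 5.95% and 2.66% in the mutant, with a median change of 0.28 in wild type and 0.11 in the mutant.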

How the data were processed

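Per the labels' protocols, Trizol served for RNA extraction, and amplified antisense RNA carrying biotin was hybridised. The deposited files give 1 linear intensity per probe set; the sources used here do not name the probe summary or the scaling that the authors applied. The deposited column medians lay between 77 and 83.2, and 23.4% to 24.8% of values per array were below 16. After quantile normalization a floor of 16 was applied before log2, and 4066 probe sets that never exceeded it were removed.

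Tests used limma (3.58.1; R 4.3.3), with 1 mean per group over all 12 arrays and two-sided p-values adjusted by Benjamini-Hochberg over 18680 probe sets, called at an adjusted p under 0.05. The procedure was tested on simulated data. Nothing in the labels says how replicates were grown apart. The p-values thus weigh group differences against the spread between these arrays, whose number limits the precision. Symbols came from the platform annotation, and all 22 were the same in the RefSeq table of assembly TAIR10.1. No source names the array's genome build, so no coordinates are printed.

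Named genes were members called in a comparison, the 5 lowest p where none was called, the 5 brightest, and members of well-known families, here CYP51; others stand for their family or were chosen after their values were seen, as were CYP84A4, CYP78A9, CYP71B6 in the fit without 1 array, CYP71B27 and the runs of neighbours. The members, lists and alternatives were chosen with earlier results of these data known. Tandem runs were taken as CYP71B genes with at most 1 other protein-coding gene or pseudogene between them. Promoter and protein sequences were not used here.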

Additional observations from a re-analysis of the deposited data

How the results depend on the processing

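Of 24 alternatives, 11 left the wild-type count of called members within 1.5 times of 2. It was 1 with median centring, 1 with only the arrays compared and 1 with the replicate block, 4 with the offset of 32 in place of the floor (CYP71B35 and CYP84A4 added), 5 with array weights (CYP71B37 added to those) and 0 where at least 2-fold change was asked. Without single arrays it was 1 to 4. A similar count did not always hold the same members: without array 3 of wild type in chitooctaose they were CYP71B5 and CYP78A9. In wild type CYP71B5 was called in 23 of 24 alternatives and CYP71B26 in 11. The mutant count, 2, was 1 with floor-constant probe sets kept, 1 at 2-fold and 4 with only the arrays compared (CYP71B37 and CYP78A9 added), and 1 to 3 without single arrays. Counts for the difference between responses and for both genotype comparisons were 0 in each alternative run; the difference between responses uses all arrays and has no fit with only the arrays compared. No called change reversed its sign. With the pair of arrays set apart by the second principal component left out together, 3 members were called in wild type (CYP71B37 added) and 2 in the mutant. The replicate numbers were not taken to pair the arrays. Correlations of same-numbered deviations ran from -0.147 to 0.106 for the wild-type response and from -0.142 to 0.0538 for the mutant one. Between genotypes they ran from 0.0828 to 0.427 in water, all positive, and from -0.0595 to 0.151 in chitooctaose. The same number gave the highest correlation for replicates 1 and 3 in water and for replicate 2 in chitooctaose. It did so for replicate 1 of the mutant response and for none of the wild-type response. Whether same-numbered arrays share a source was not tested. The replicate block (1 and 2 calls) rests on numbers alone. Sizes at low intensity depend on the scale: with a floor of 32 the wild-type change of CYP78A9 was -0.16 in place of -0.58, and adding an offset of 32 to every value gave CYP84A4 0.42 in place of 0.71.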

Other observations

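Probe sets with CYP in their names that the symbol form left out were also read. CYP718 (AT2G42850), a P450 gene without a subfamily letter, was at 47.3, 62.6 and 55.7 in wild-type water arrays and at 40.6, 39 and 30.6 in wild-type chitooctaose arrays. In the mutant it was at 60.7, 45.4 and 89.3 in water and at 39.6, 39.6 and 22.4 in chitooctaose. In both genotypes all chitooctaose arrays lay below all water arrays. CYP718 had changes of -0.59 ± 0.27 in wild type (SE, n = 3 arrays per group; limma adjusted p = 0.213) and -0.94 ± 0.27 in the mutant (limma adjusted p = 0.0576), so neither was called.

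The probe set shared by CYP71B20 and CYP71B19 was at 513, 553 and 455 in wild-type water arrays, at 525, 459 and 471 in wild-type chitooctaose arrays, at 472, 426 and 458 in mutant water arrays and at 348, 381 and 372 in mutant chitooctaose arrays. The mutant chitooctaose arrays were the lowest. Its change was -0.30 ± 0.09 in the mutant (SE, n = 3 arrays per group; limma adjusted p = 0.0717) and -0.06 ± 0.09 in wild type (limma adjusted p = 0.745), and the difference between them, -0.24, had a 95% interval from -0.52 to 0.04. In chitooctaose it was -0.40 in the mutant relative to wild type (limma adjusted p = 0.395). The probe set shared by AT1G58265 and CYP79C2 was at the floor on all arrays. CYP71 and CYP59 are cyclophilins that share the prefix and are not P450 genes; neither was called.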
